A study of Mus musculus with 2 samples.

Results

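Cluster 5 was 1 of the 12 columns in the authors' table of average expression for single cells of irradiated mouse colon, and its members were taken by that column heading. It held 274 of the 3082 cells behind the table (8.89%). The cells came from the colon of wild type C57BL/6 mice, labelled as colon epithelium, 2 weeks after exposure to irradiation. The series title names colonoids, organoids grown from colon, that were transplanted into a rectum injured by radiation, and the labels give neither the number of mice nor which cells descend from a graft. All cells belonged to 1 group of 2 libraries, and because no column names a library they are described as pooled. A value is the mean over the cells of a cluster of a gene's UMIs (unique molecular identifiers, each a captured RNA molecule) per 10000 UMIs of the cell, and is called the level from here on. There was no replicate and no second group, so nothing could be tested. Intervals are exact 95% Poisson intervals of the approximate UMIs behind a level and reflect counting error alone. Since these same values were used to draw the clusters, what sets cluster 5 apart is a description of it.

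Neutrophils are short-lived white blood cells that leave the bone marrow with their granules already filled and enter injured tissue by following chemokines, complement fragments and lipid mediators. Their granule proteins are made in a fixed order during maturation in the marrow, azurophil granules first, specific granules next and gelatinase granules last, so that the mature cell carries the proteins of early granules but little of their RNA. In a wounded colon they kill bacteria that cross the epithelium, release cytokines that call further leukocytes, and die or leave as the surface closes. They hold little RNA per cell, which makes them shallow in droplet libraries.

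The 6 markers given for neutrophils all had their highest level in cluster 5. S100a9 and S100a8, which together form calprotectin, the zinc- and manganese-binding protein that fills the neutrophil cytosol, were at 442 (435 to 449) and 427 (420 to 434) and were the highest genes of the column. Together they took a mean of 8.69% of the UMIs of a cell in cluster 5, against 0.00226% in cluster 10 and at most 0.317% in any other column. Shares of a column's RNA given below are likewise means over cells. Retnlg, a secreted resistin-like protein, was at 31.4 (29.6 to 33.3). Csf3r, the receptor for the granulocyte growth factor G-CSF, was at 8.86 (7.91 to 9.89). Cxcr2, the receptor for the chemokines that draw neutrophils, was at 3.41 (2.83 to 4.07). Ptprc, the leukocyte surface phosphatase CD45, was at 3.69 (3.08 to 4.38), against 1.78 (1.26 to 2.44) in cluster 10 and at most 0.0827 in the epithelial columns. The markers thus went with the label, with Ly6g as the exception outside the 6: this surface protein, widely used to sort mouse neutrophils, was at 0.603 in cluster 5 and at 8.19 in cluster 8, a column of absorptive colonocyte genes.

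The arithmetic of low averages gave the number of cells and, for 232 of the 274, the UMI total of the single cell. The median was 1400 UMIs, with quartiles of 1031.5 and 1929.5, whereas all 31 cells of cluster 10 could be read and had a median of 8118. Of the 232 cells, 55 had under 1000 UMIs, 126 had from 1000 to under 2000, 40 from 2000 to under 5000 and 3 from 5000 to under 10000. The remaining 8 had 10000 or more, from 10620 to 23051, with the next cell below them at 6375. A gene at 0 in cluster 5 could have had up to 3 UMIs, or a level of 0.0845, and in cluster 10 up to 0.139. How cells were filtered and how doublets were treated is not given in the sources used here.

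**Figure D1:**
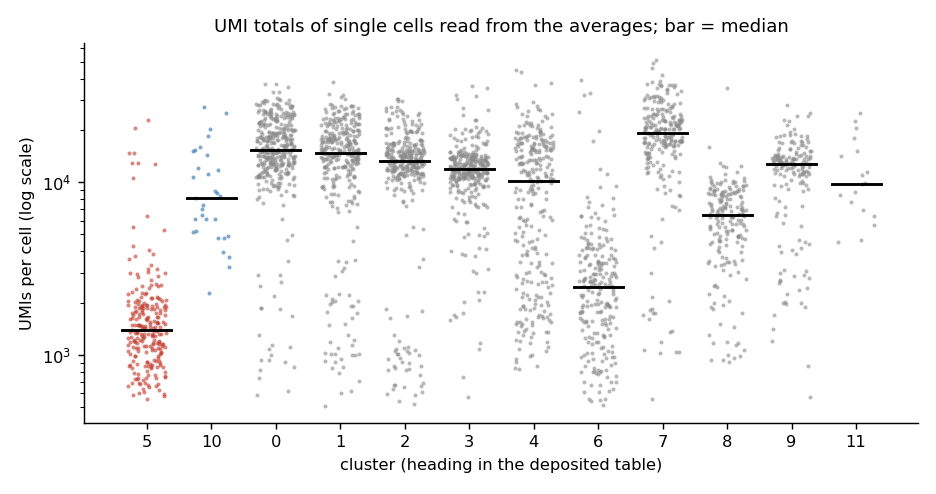
UMI totals of the single cells that could be read from the averages, by cluster, on a log scale; each point is a cell and each bar a median. Cluster 5 (red) lay at a median of 1400 UMIs with 8 cells at 10000 or more, cluster 10 (blue) at 8118, and cluster 2 held 38 cells under 2000 UMIs.

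The 8 deep cells, 3.45% of those read, held 26.0% of the read UMIs and 42.4% of the 2068 genes that came from 1 cell alone. Some of their genes are not known from neutrophils. The cell of 23051 UMIs gave all 66 UMIs of Krt15, a keratin of basal and stem-like epithelium, and 7 of Mcm3, a DNA replication helicase subunit. The cell of 14818 UMIs gave 6 UMIs of Ccna2 and 6 of Racgap1, genes of dividing cells, and 4 of the 5 UMIs of Birc5. Because each cell is scaled to 10000 UMIs before averaging, each had a weight of 0.365% in a level, whatever its depth. Over the column, 17.7% of the 11670 genes above 0 came from 1 cell, and such genes are given with their UMIs. The genes named from single cells in this and the next paragraph were chosen after their values were seen. Cells that share a UMI total could not be told apart in this reading.

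Single cells below 10000 UMIs also carried markers of other types. A cell of 3037 UMIs gave 18 UMIs of Chga, the chromogranin of enteroendocrine granules, 13 of Pcsk1n, an inhibitor of prohormone processing, and 2 of Cck, the hormone cholecystokinin, all found in no other cell of the cluster. A cell of 656 UMIs gave 4 UMIs of C1qc, 3 of the 4 UMIs of C1qb and 2 of C1qa, the chains of the complement component that tissue macrophages make. Arg1, the arginase of alternatively activated macrophages that is also listed among gelatinase granule proteins, was at 0.292 in cluster 5, and all of it was 9 UMIs in a cell of 1125. Ptges, which makes prostaglandin E, was 15 UMIs in the cell of 6375, which also held all 4 UMIs of Msr1, a scavenger receptor of macrophages. These are counts of named genes in single cells, and how such cells came to lie in the column was not tested.

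Markers of T cells, mast cells, red cells and platelets were near or at 0. None of the 11 measured T and NK cell genes reached 1, and they summed to 0.07105 in cluster 5, against 15.46 in cluster 10 and at most 0.06551 in an epithelial column. Of these, Cd3e, Trbc1, Trbc2, Nkg7, Klrd1, Ccl5 and Il7r were listed at 0. The 11 mast cell and basophil genes summed to 0.0994 in cluster 5 and to 203 in cluster 10, with Cpa3, Mcpt4, Mcpt8, Tpsb2, Fcer1a, Ms4a2 and Gata2 at 0. The 7 measured B and plasma cell genes summed to 0.5643 in cluster 5 and 1.564 in cluster 10, with Ighm at 0.424 in cluster 5 and Cd79a, Cd79b, Jchain and Iglc2 at 0. Of 6 red cell and platelet genes only Pf4 was detected, with 2 UMIs in 2 cells. Eosinophil genes rested on 2 of 9, Siglecf at 0.247 and Ear2 at 0. Of 5 measured stromal and endothelial genes Acta2, smooth muscle actin, stood at 0.663 in cluster 5, 0 in cluster 10 and at most 0.0622 elsewhere, while Pdgfrb was 1 UMI and Plvap 0. The 10 monocyte genes summed to 9.763 in cluster 5 and 33.96 in cluster 10, and 7 were above 0 in cluster 5. Nr4a1, an immediate early nuclear receptor, was at 5.72, with 2.79 in cluster 10, and Ly6c2 was at 0.704, with 0.683 in cluster 10. Both had their highest level in cluster 5. Plac8 was at 3.30, against 22.9 in cluster 10 and 51.9 in cluster 8, whereas Ccr2, Fn1 and Ms4a6c were at 0, against 0.775, 2.86 and 3.02 in cluster 10. The 18 macrophage and dendritic cell genes summed to 18.31 in cluster 5, of which 13.6 was Lyz2, lysozyme, a gene neutrophils also express, and to 160.5 in cluster 10.

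Epithelial RNA was present in the column. The 17 pan-epithelial genes were all above 0 in cluster 5 and summed to 64.13, against 47.97 in cluster 10 and 140.5 to 542.4 in the epithelial columns. Gene by gene they stood at a median of 18.3% of their epithelial mean (quartiles 15.3% and 23.6%) in cluster 5 and of 9.70% in cluster 10. Epcam, the epithelial adhesion molecule, was at 3.83 in cluster 5, and Phgr1, an abundant colonocyte gene, at 4.61. The 12 absorptive colonocyte genes stood at a median of 8.02% of their epithelial mean in cluster 5, with Lypd8, an antibacterial surface protein, at 11.97. The 13 goblet cell genes stood at 14.2%. Whether this RNA was free in the droplets or sat in cells of the cluster was not tested.

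Leading genes were those at 1 or more in cluster 5 whose level there was 2 times that of the next highest column or more, with a pseudocount of 0.1 that understates the fold of low genes. There were 247 of them among the 17044 genes of the table (1.45%), and their summed share of RNA was 35.0% in cluster 5, against 5.04% in cluster 10. Counting any gene with its highest value in cluster 5 gave 1323 (7.76%). Among the 1632 genes at 1 or more in cluster 5 or 10, 418 were highest in cluster 5 and 247 were leading. Counts over gene lists are to be read beside these shares. For 150 of the 247 the highest other column was cluster 10. Of the 247, 115 were at least 4-fold and 39 at least 10-fold above it. Just inside the rule were Adipor1 at 2.00-fold and Atg3 at 2.01-fold, and just outside it Tpm4 at 1.99-fold and Ppp1r15a at 1.97-fold.

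By fold over the highest other column the list opened with Retnlg at 48.8-fold, Csf3r at 29.7-fold, S100a9 at 28.3-fold, Hcar2 at 27.8-fold and Il1f9 at 27.6-fold. Hcar2 is the receptor for niacin and the ketone body beta-hydroxybutyrate, and Il1f9 is an older symbol of interleukin 36 gamma. S100a8 followed at 26.2-fold, H2-Q10 at 23.7-fold, Cxcr2 at 22.3-fold, Irg1 at 22.1-fold, Asprv1 at 21.3-fold and Mmp9 at 21.2-fold. Irg1 makes the antimicrobial metabolite itaconate, Asprv1 is an aspartic protease known from skin, and Mmp9 is gelatinase B. H2-Q10 belongs to the class I histocompatibility genes, whose near-identical copies can share reads, so its value is uncertain. Trem1 at 19.4-fold, Hdc at 17.7-fold, Ptgs2os2 at 16.5-fold and Stfa2l1 at 16.1-fold closed the first 15. Trem1 amplifies inflammatory signals, Hdc makes histamine and Stfa2l1 is one of the stefin A inhibitors of cysteine proteases. Ptgs2os2, at chr1:150159043-150164948 (-), lies on the strand opposite the neighbouring Ptgs2, at chr1:150100031-150108227 (+), and does not overlap it.

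By level the 15 highest leading genes were S100a9, S100a8, Cxcl2 at 343 (337 to 349), Il1b at 241 (236 to 246), G0s2 at 98.2, Srgn at 89.7, Nfkbia at 73.8, Tyrobp at 71.1, S100a11 at 63.5, Slpi at 57.3, Cd14 at 56.8, Ifitm2 at 40.5, Ccrl2 at 34.9, Il1r2 at 34.7 and Gadd45b at 32.5. They cover a chemokine and a cytokine (Cxcl2 and Il1b), an inhibitor of fat breakdown (G0s2), the proteoglycan that packs granules (Srgn) and the inhibitor of NF-kB (Nfkbia). Tyrobp is the signalling adaptor of activating receptors, Slpi an inhibitor of neutrophil elastase and Cd14 the co-receptor for lipopolysaccharide. The plot of leading genes sets their other columns beside these levels: in cluster 10, Srgn had 27.9% of its cluster 5 level, Tyrobp 31.1%, Ifitm2 38.2% and Cd14 40.8%.

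**Figure D2:**
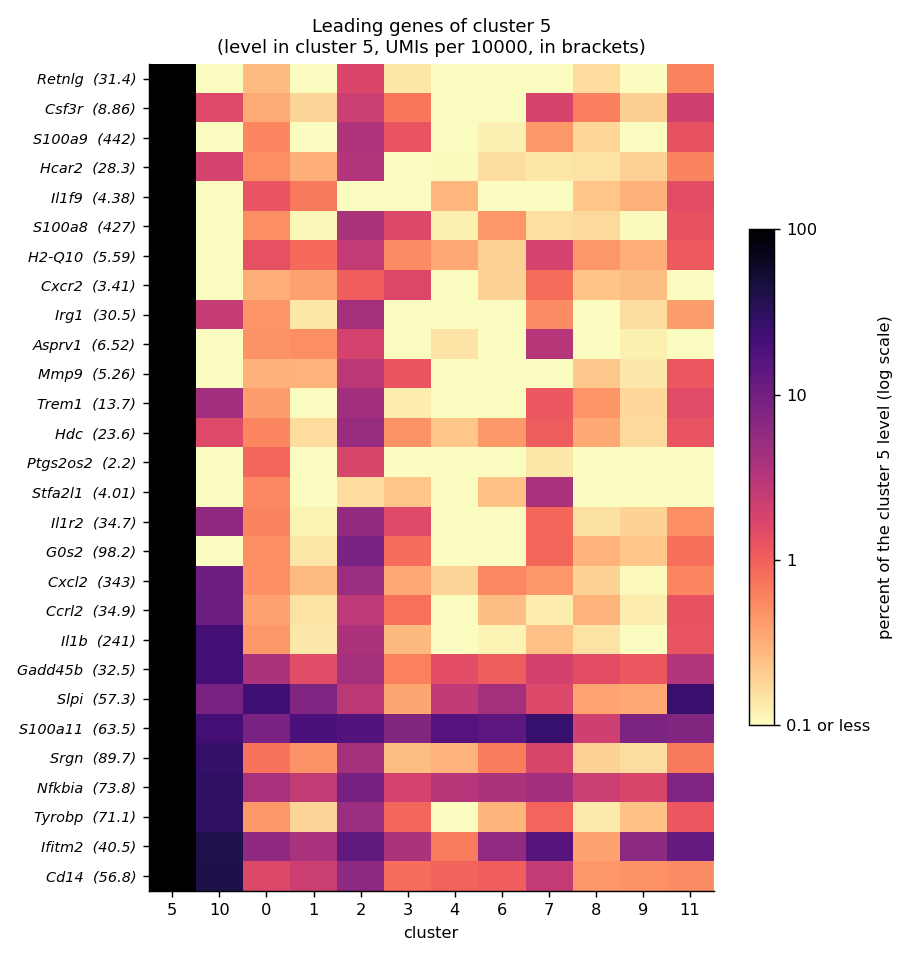
Level of each leading gene in the 12 columns as a percentage of its level in cluster 5 (colour, log scale), for the 15 leading genes with the largest fold and the 15 with the highest level, 28 in all; the level in cluster 5 is in brackets. Cluster 10 holds Cd14 at 40.8% but S100a9 and Retnlg at 0.1% or less, and S100a11 and Slpi stay visible in epithelial columns.

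Some leading genes lay side by side in the genome. Of the 244 found in GENCODE M21 (GRCm38), 48 fell into 22 runs with gaps of at most 100 kb. S100a8 and S100a9 made 1 such run at chr3:90668978-90695721, and Cxcl1 and Cxcl2 another at chr5:90891241-90905938. Ccl3, Ccl4, Wfdc17 and Wfdc21 shared chr11:83647844-83752642, the stefins Stfa2l1, Gm5483 and Stfa1 chr16:36156811-36285373, and the C-type lectins Clec4d and Clec4e chr6:123262111-123289870. Fpr1 and Fpr2, Trem1 and Trem3, Lilrb4a and Lilr4b, Pilra and Pilrb2, and Slfn1 and Slfn2 were further pairs. Reads of close copies within such families could have been split between them. Other runs joined unrelated genes, such as Arg2 with Rdh12 and Zfp36 with Gmfg. The same count was not made for other genes, so nothing is read from the 48.

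RefSeq promoters (GRCm38.p6, 250 bases before to 50 after the start site) were matched by symbol for 197 of the 247 leading genes. The NF-kB motif, searched on both strands, was found in 20 of the 197 (10.2%), in 6.75% of 652 other genes at 1 or more in cluster 5 and in 5.14% of all 27025 promoters. The 20 included those of Cxcl1, Cxcl2, Cxcl3, Cxcl10, Nfkbia, Nfkbid, Tnfaip3, Nlrp3, Tlr2, Ccrl2 and Ier3, which include known targets and feedback inhibitors of this factor. The windows of 100 bases below, all upstream of the start site and on the strand of the gene, show in capitals the match, which in the chemokines joins overlapping matches on both strands, for the 3 chemokines that bind Cxcr2 and for Nfkbia. They lie at chr5:90891130-90891229 (+), chr5:90903758-90903857 (+), chr5:90785984-90786083 (+) and chr12:55492648-55492747 (-).
Cxcl1: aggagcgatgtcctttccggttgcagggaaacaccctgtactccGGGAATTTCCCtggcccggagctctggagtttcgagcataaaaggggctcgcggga
Cxcl2: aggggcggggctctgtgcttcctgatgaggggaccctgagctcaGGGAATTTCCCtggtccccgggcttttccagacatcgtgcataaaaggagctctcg
Cxcl3: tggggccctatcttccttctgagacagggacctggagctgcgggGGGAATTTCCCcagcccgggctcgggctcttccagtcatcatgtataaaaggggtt
Nfkbia: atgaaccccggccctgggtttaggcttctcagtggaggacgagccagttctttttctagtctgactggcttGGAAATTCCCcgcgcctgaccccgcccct

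The 3 chemokine promoters carried the same letters in capitals, ending 60, 86 and 62 bases before the start site in Cxcl1, Cxcl2 and Cxcl3, and the match of Nfkbia ended 19 bases before it. In level the 3 genes differed widely, with Cxcl2 at 343, Cxcl3 at 11.6 (10.5 to 12.8) and Cxcl1 at 2.81 (2.29 to 3.42) in cluster 5. A match is a description of letters and not a binding site.

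For factors that act in granulocyte maturation or in interferon and stress responses the shares were as follows, with both strands searched. The C/EBP motif TTNNGCAA was in 13.2% of the 197 leading promoters, 10.6% of other genes at 1 or more and 12.2% of all promoters. The PU.1 motif GAGGAAGT was in 6.60%, 5.21% and 3.69%, the interferon response motif in 7.11%, 5.98% and 3.99%, and the AP-1 motif TGANTCA in 8.12%, 8.90% and 8.97%. Windows of the top markers that had a match, PU.1 in S100a8 and C/EBP in S100a9 and Retnlg, are shown with it in capitals. They lie at chr3:90668853-90668952 (+), chr3:90695872-90695971 (-) and chr16:48872358-48872457 (+).
S100a8: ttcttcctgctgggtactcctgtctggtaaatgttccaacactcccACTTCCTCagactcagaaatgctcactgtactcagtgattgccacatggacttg
S100a9: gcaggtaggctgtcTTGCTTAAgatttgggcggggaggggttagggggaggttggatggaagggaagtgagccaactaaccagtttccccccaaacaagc
Retnlg: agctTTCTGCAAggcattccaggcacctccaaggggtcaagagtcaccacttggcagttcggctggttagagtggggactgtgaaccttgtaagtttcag

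Granule genes are given by list, azurophil first, then specific and then gelatinase. Whether each protein belongs to the granule of its list was not checked, so a list does not give the stage of each member. Of 8 azurophil genes Lyz2, Prss57 and Serpinb1a were measured, and Mpo, Elane, Prtn3, Ctsg and Ms4a3 were not analysed here. Lyz2 was at 13.6 in cluster 5 and 55.2 in cluster 10. Prss57, a protease of the first granules, was 4 UMIs in 2 cells. Of the specific granule proteins, Ngp was 1 UMI, Camp (cathelicidin) 2 UMIs in 2 cells, Chil3 1 UMI, and Ltf (lactoferrin) was at 0.0891. Lcn2, the iron-binding lipocalin that is also induced outside the marrow, was at 6.65 (5.83 to 7.56) in cluster 5 and 0.527 in cluster 10. Of the 9 measured genes listed as specific granule genes 2 were leading (1.45% of all genes were), Lcn2 and Ltb4r1. The latter encodes a leukotriene receptor and is given again among the chemoattractant receptors. The list had a median log2 of 0.92 over cluster 10 (0.12 with a pseudocount of 1) and of -0.38 over the mean of the other columns.

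Of 7 measured genes listed as gelatinase granule genes 6 had their highest level in cluster 5, against 7.76% of all genes. The 4 at 1 or more there were leading, against 1.45% of all genes. The list had a median log2 of 1.86 over cluster 10 (0 over all genes), or 0.78 with a pseudocount of 1. Hp, haptoglobin, was at 14.7 in cluster 5 and 3.98 in cluster 10. Mmp9 was at 5.26 (4.54 to 6.08) in cluster 5 and at 0 in cluster 10, at least 37.8-fold higher. Adam8, a surface protease, was at 2.46 and 0.416 in clusters 5 and 10, Slc11a1, the metal pump of phagosomes, at 2.25 and 1.05, and Mmp8, neutrophil collagenase, at 0.712 and 0. Arg1, the member 2-fold or more higher in cluster 10, was at 0.292 in cluster 5 and 4.82 in cluster 10.

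**Figure D3:**
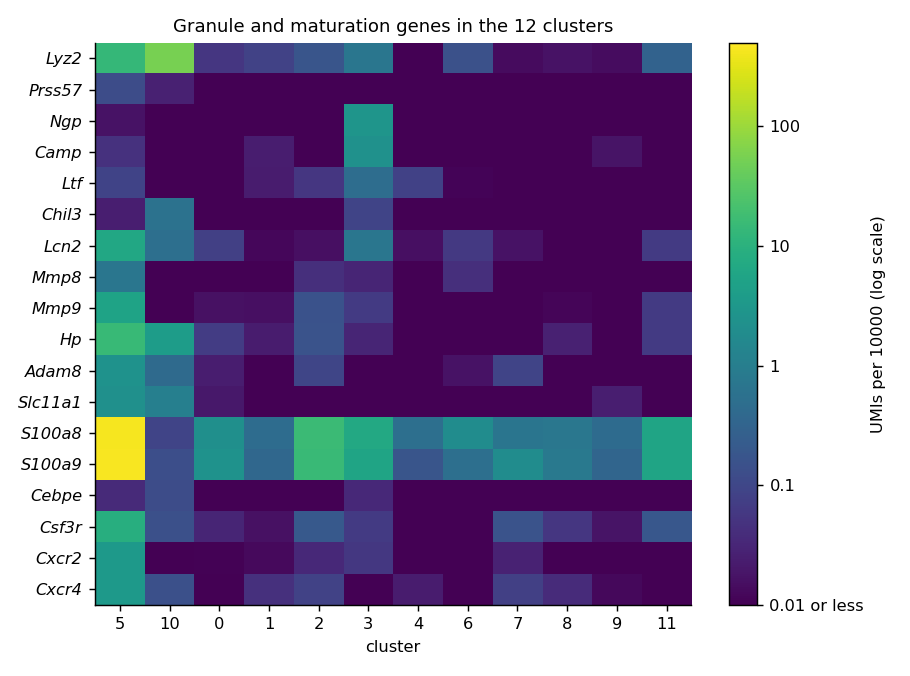
Levels of granule, receptor and maturation genes in the 12 columns (colour, log scale; values of 0.01 or less in the darkest shade). In cluster 5 Hp, Mmp9 and Lcn2 are high while Ngp and Camp are near 0; the bright Ngp and Camp fields of cluster 3 reach 2.81 and 2.35.

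Cebpe, the factor that switches on specific granule genes, was 2 UMIs in 2 cells of cluster 5. In cluster 3, an epithelial column of 339 cells, 1 cell held such RNA. This cell had 5073 UMIs, of which 483 were Ngp, 118 were Lyz2, 16 were Chil3, 14 were Ifitm6 and 6 were Cebpe, all the UMIs of these genes in that column. It also gave 6 of the 7 UMIs of Cybb and 5 of the 6 UMIs of Mmp8 in that column. Camp, at 2.35 in cluster 3, came from too many cells or UMIs to be read.

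Protease inhibitors made up a group of their own. Of the stefin A family, Gm5483 was at 7.13, Stfa2l1 at 4.01 and Stfa1 at 1.15 in cluster 5 and all were at 0 in cluster 10, while Cst3, the secreted cystatin C, was at 7.66 in cluster 5 and 44.7 in cluster 10. Csta1, of the same family, was at 0 in cluster 5 and 0.985 in cluster 8. Wfdc17, of the whey acidic protein family, was at 29.9, against 2.72 in cluster 10, and Wfdc21 was at 5.93 and 0. Slpi was at 57.3 (54.8 to 59.8), against 5.13 in cluster 10 and 14.8 in cluster 11. Serpinb1a, an inhibitor of elastase and cathepsin G, was at 0.628, against 12.7 in cluster 8.

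The resistin family divided over the columns by member. Retnlg belonged to cluster 5, with at least 226-fold more than the 0 of cluster 10, and Retn, resistin itself, was at 0.404 (0.223 to 0.674) in cluster 5 and at most 0.00206 elsewhere. Retnla stood at 12.8 in cluster 10, where all of it was 427 UMIs in a cell of 10774, and at 2 UMIs in 2 cells of cluster 5. Retnlb, the goblet cell member, was 1 UMI in cluster 5 and at 3.62 in cluster 0. The small S100 proteins divided too: S100a11 was at 63.5 in cluster 5 and 13.9 in cluster 10, S100a6 at 43.9 and 17.4, and S100a4, a motility protein of macrophages and T cells, at 0.104 and 4.02.

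Receptors for signals that recruit neutrophils were mostly highest in cluster 5. Of 14 measured chemoattractant receptors 11 had their highest level in cluster 5, 10 were leading and 10 were at least 2-fold above cluster 10, against 2.18% of all genes at that fold and level. C5ar1, the receptor for complement C5a, was at 12.9 (11.7 to 14.1) in cluster 5 and 0.972 in cluster 10. Ccr1, a receptor for Ccl3 and related chemokines, was at 11.2 and 1.67, Ptafr, for platelet-activating factor, at 4.76 and 0.664, and Ltb4r1, for leukotriene B4, at 1.44 and 0.255. The formyl peptide receptors Fpr2 and Fpr1, which sense bacterial and mitochondrial peptides, were at 2.78 and 2.41 in cluster 5, with 0.394 and 0.126 in cluster 10. The members that did not share this pattern were Ccr2 and C3ar1, both at 0 in cluster 5, and Gpr84 at 0.801 in cluster 5 and 1.73 in cluster 10.

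Receptors named in work on the ageing of circulating neutrophils, in which Cxcr4 and integrins increase as Cxcr2 declines, were present together. Cxcr4, the receptor that returns aged cells to the marrow, was at 3.48 (2.89 to 4.15) in cluster 5 and 0.141 in cluster 10. Cxcr2 was at 3.41 in cluster 5, within the interval of Cxcr4. Icam1 was at 2.08, Itgam (CD11b) at 0.757 and Tlr4 at 0.224 in cluster 5. The averages do not show whether the same cells held Cxcr4 and Cxcr2. Cd44, the hyaluronan receptor, was at 9.72 in cluster 5 and 1.68 in cluster 10, Selplg, the ligand of P-selectin, at 5.29 and 1.75, and Itgb2, the shared chain of leukocyte integrins, at 1.65 and 1.79.

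Receptors for growth factors and cytokines were led by Il1r2, a decoy that binds interleukin 1 without signalling, at 34.7 (32.8 to 36.7) in cluster 5 and 2.06 in cluster 10. Tnfrsf1a, a receptor for tumour necrosis factor, was at 3.31 and 0.492. In this list 12 of 18 had their highest level in cluster 5 and 3 were leading, against 7.76% and 1.45% of all genes. The leading share was near that of the 1632 genes at 1 or more in cluster 5 or 10, of which 247 were leading. The chains of the GM-CSF receptor were at like levels in clusters 5 and 10, with Csf2rb at 2.19 and 1.95 and Csf2ra at 1.91 and 2.62. Ifngr1, for interferon gamma, was at 1.30 in cluster 5 and 6.30 in cluster 8.

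Sensors of microbes and immune complexes were mostly highest in cluster 5. Of 18 pattern and Fc receptors 16 had their highest level there and 9 were leading, against 7.76% and 1.45% of all genes. Clec4e and Clec4d, lectins that sense mycobacterial and fungal glycolipids, were at 30.5 and 24.9 in cluster 5 and at 5.98 and 1.797 in cluster 10. Trem1 was at 13.7 and 0.606, Nlrp3, the inflammasome sensor, at 9.75 and 0.668, and Tlr2 at 4.03 and 0.696. Of the Fc gamma receptors, the activating Fcgr3 and Fcgr4 were at 7.57 and 1.59 in cluster 5 and at 4.26 and 0.876 in cluster 10. The inhibitory Fcgr2b was at 0.146 and 3.91, and the high-affinity Fcgr1 at 0 and 0.973.

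The list of inhibitory and paired receptors had 15 of 16 genes highest in cluster 5 and 8 leading. Most belong to families that send activating or inhibitory signals from the same cell surface. The shares of all genes that were highest there and leading were 7.76% and 1.45%. Lilr4b and Lilrb4a were at 7.50 and 7.38 in cluster 5 and at 1.81 and 2.17 in cluster 10. Cd300ld was at 4.51 and 0.273, Cd300lf at 4.15 and 0.386, Pilra at 5.13 and 1.16 and Cd33 at 2.39 and 0.168. Pirb, which binds class I molecules, was at 1.47, against 1.30 in cluster 10. The remaining gene of the list, Ly6g, is a surface protein counted here without being such a receptor, and was higher in cluster 8.

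Secreted cytokines and chemokines were abundant in cluster 5, with a summed level over 19 genes of 725.2 in cluster 5, 154.6 in cluster 10 and at most 36.29 in an epithelial column. Cxcl2 was 9.39 times (8.74 to 10.1) its level in cluster 10 and Il1b 4.55 times (4.28 to 4.85). Ccl3 was at 32.0 in cluster 5 and 5.03 in cluster 10, Ccl4 at 28.8 and 13.4 and Osm, oncostatin M, which acts on epithelium and stroma, at 6.30 and 0.764. Of the 19, 12 were highest in cluster 5, 8 were leading and 9 were at least 2-fold above cluster 10. The same shares over all genes were 7.76%, 1.45% and 2.18%. Il1rn, the antagonist of the interleukin 1 receptor, was at 21.1 (19.7 to 22.7) in cluster 5 and 13.3 in cluster 10, so that its ratio of 1.59 (1.39 to 1.84) lay below that of Il1b. Tnf was at 3.72 (3.11 to 4.41) in cluster 5 and 2.82 (2.15 to 3.62) in cluster 10, intervals that overlap.

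Other cytokines were low or at 0 in cluster 5. Ccl5 and Il6 were at 0 in cluster 5 and at 9.64 and 0.373 in cluster 10, and Ccl2, which draws monocytes, was 5 UMIs in 2 cells. Tgfb1 was at 1.61 in cluster 5 and 5.59 in cluster 10. Vegfa was at 0.364 and 0.607. Csf3, which encodes G-CSF and was chosen after its value was seen, was a leading gene at 1.47 in cluster 5, with 1 UMI in cluster 10. Il23a, a subunit of interleukin 23, Il15 and Ltb were also leading genes and were likewise chosen after their values were seen.

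Genes of the oxidative burst gave a split by subunit. The phagocyte oxidase joins the membrane subunits Cybb and Cyba with cytosolic subunits, among them Ncf1 and Ncf4, and a Rac protein. Ncf1 was at 2.67 in cluster 5 and 1.79 in cluster 10, Ncf4 at 2.47 and 3.01, Rac2 at 10.01 and 6.96, and Cyba at 10.96 and 16.1. Cybb, the catalytic chain, was at 0.176 (0.0659 to 0.377) in cluster 5 and at 2.29 (1.70 to 3.03) in cluster 10, 13.1 times (5.76 to 38.5) higher there. Hvcn1, the proton channel that sustains the burst, was 3 UMIs in 2 cells of cluster 5 and at 1.08 in cluster 10.

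Actin and other cytoskeleton genes shared by leukocytes were at like levels in clusters 5 and 10, with a median log2 of -0.11 over 15 genes. Actb was at 58.8 in cluster 5 and 60.3 in cluster 10, Pfn1 at 27.4 and 27.7, Coro1a at 12 and 10.6 and Tmsb4x at 191 and 255. Srgn at 89.7 and 25.03 and Lsp1 at 9.43 and 3.70 were the 2 leading genes of this list. Leading genes were 1.45% of all genes and 247 of the 1632 at 1 or more in cluster 5 or 10.

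Of 21 immediate early and NF-kB feedback genes all were at 1 or more in cluster 5, 12 were highest there and 9 were leading. The shares of all genes that were highest there and leading were 7.76% and 1.45%. Nfkbia was at 73.8 (71.0 to 76.7) in cluster 5 and 21.9 in cluster 10, Gadd45b at 32.5 and 7.15, Dusp1, a phosphatase of MAP kinases, at 26.2 and 7.77, and Zfp36, which destabilises cytokine RNA, at 14.9 and 4.85. Nfkbiz was at 10.3 and 1.86 and Tnfaip3, the A20 ubiquitin-editing enzyme, at 3.63 and 1.33. Of the AP-1 genes, Fos was at 14.6, with 13.4 in cluster 10 and 36.6 in cluster 11, and Jun was at 9.37, 21.6 and 31.1 in the same columns. Nfkb1 itself was at 1.01 in cluster 5 and 1.28 in cluster 10.

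Among transcription factors of granulocytes, Cebpb, which drives emergency granulopoiesis, was the only leading gene of 16, against 1.45% of all genes. Cebpb was at 2.48 in cluster 5 and 0.325 in cluster 10. Mxd1, a partner of Max that goes with terminal maturation, was at 10.3, against 0.720 in cluster 10 and 8.41 in cluster 4. Spi1, which encodes PU.1, was at 9.33 in cluster 5 and 5.42 in cluster 10. Factors of other fates or of earlier stages were low in cluster 5: Irf8, of monocytes and dendritic cells, was at 0.161, against 4.27 in cluster 10, Runx3 at 0.0674 and 0.992, and Gfi1 was at 0.

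Survival genes were mixed. Mcl1, on which neutrophil survival depends, was at 8.21, against 2.16 in cluster 10 and 3.79 in cluster 8. Bcl2a1b, an A1 family member whose copies are near-identical, was at 13.6 in cluster 5 and 11.4 in cluster 10, whereas Bcl2 was at 0.0600 and 0.421. The death receptor gene Fas was at 1.81 (5.36-fold over the highest other column) and Bcl2l11, which encodes Bim, at 0.903. Of the 20 p53 targets, which radiation can induce, 3 were at 1 or more in cluster 5 (Btg2 at 13.9, Cdkn1a at 6.31 and Fas), and Mdm2 was at 0.300, Bbc3 at 0.0476 and Eda2r at 0. No unirradiated cells were analysed here, and the labels do not say which cells had been exposed, so these levels show no response to radiation. None of 17 cell cycle genes was highest in cluster 5, against 7.76% of all genes. Top2a was 1 UMI, and all Ccna2 lay in the deep cell named above.

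Of 32 interferon-stimulated genes, 17 were highest in cluster 5, 6 were leading and 11 were at least 2-fold above cluster 10. The same shares over all genes were 7.76%, 1.45% and 2.18%. Of the 1632 genes at 1 or more in cluster 5 or 10, these counts were 418, 247 and 372. The leading share of the list was thus near that of expressed genes. The median log2 of the list over cluster 10 was 1.36 (0.38 with a pseudocount of 1). Isg15 was at 12.6 (11.5 to 13.9), against 3.96 in cluster 10 and 5.43 in cluster 4. Slfn2 and Slfn1 were at 11.9 and 3.42 in cluster 5 and at 3.47 and 0.0913 in cluster 10. Ifitm2, which blocks virus entry, was at 40.5 and 15.5, and Irf1 at 3.74 and 0.499. Among the rest, Irf7 was at 1.33 in cluster 5 and 7.09 in cluster 4, Ifit1bl1 at 0.115 and 6.54, and Bst2 at 0.127 in cluster 5 and 3.52 in cluster 10.

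Of 22 glycolysis and hypoxia genes 6 were highest in cluster 5, 4 were at least 2-fold above cluster 10 and 2 at least 2-fold below it. The median log2 was 0.21. Of the 1632 genes at 1 or more in cluster 5 or 10, these counts were 418, 372 and 615. The shares highest in cluster 5 and above cluster 10 were thus near those of expressed genes. Slc2a3, a glucose carrier, was at 2.36 (1.88 to 2.92) in cluster 5 and 0.127 in cluster 10, Slc16a3, which exports lactate, at 10.5 and 1.34, and Pygl, which opens glycogen stores, at 1.69 and 0.354. These were the 3 leading genes of the list, against 1.45% of all genes and 247 of the 1632. The glucose carrier Slc2a1 was at 1.56 and 0.445. The glycolytic enzymes Gapdh and Ldha, those 2-fold lower, were at 8.95 and 5.02 in cluster 5 and at 20.6 and 10.9 in cluster 10. In lipid mediator synthesis Alox5ap, which hands arachidonate to 5-lipoxygenase, was at 11.5, against 4.83 in cluster 10, and Ptgs2, cyclooxygenase 2, at 6.66 and 0.484, while Ltc4s was at 0 and 0.421.

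Set against cluster 10 as a whole, 372 genes were at least 2-fold higher in cluster 5 (2.18% of 17044, at 1 or more there) and 615 were at least 2-fold higher in cluster 10 (3.61%). Over the 1632 genes at 1 or more in either column the median log2 was -0.50. By fold the first genes of cluster 5 were S100a8, S100a9, G0s2, Retnlg, Gm5483, Asprv1, Wfdc21, H2-Q10, Mmp9 and Lrg1. Lrg1, a glycoprotein of neutrophil granules, was at 8.60, against 0.0672 in cluster 10, and G0s2 was at 98.2 in cluster 5 with 2 UMIs in cluster 10. Retnlg, Gm5483, Asprv1, Wfdc21, H2-Q10 and Mmp9 were at 0 in cluster 10. In cluster 5 they were 226-, 51.1-, 46.8-, 42.6-, 40.1- and 37.8-fold over the floor of 3 UMIs in cluster 10.

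**Figure D4:**
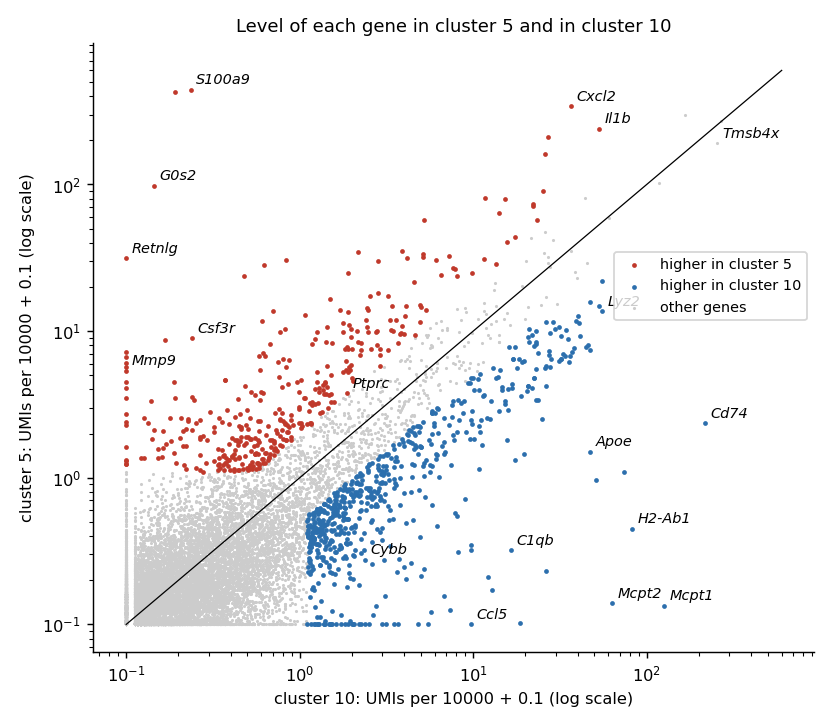
Level of every gene in cluster 5 (vertical) and cluster 10 (horizontal), each plus 0.1, on log axes; red marks 372 genes at least 2-fold higher in cluster 5 and blue 615 at least 2-fold higher in cluster 10, and the line marks equal levels. S100a9 and G0s2 lie at the upper left, Mcpt1 and Cd74 at the lower right, and Tmsb4x near the line.

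The first genes of cluster 10 over cluster 5 named 3 other cell types. Mcpt1, Mcpt2 and Cma2, proteases of mucosal mast cells, were at 126, 62.8 and 18.4 in cluster 10 and had 1, 2 and 1 UMIs in cluster 5. The antigen presentation genes Cd74, H2-Ab1, H2-Aa and H2-DMa were at 2.25, 0.350, 0.987 and 0.0250 in cluster 5 and at 216, 82.7, 74.0 and 7.25 in cluster 10. Ccl5, a chemokine of T cells, Rgs1, a regulator of G-protein signalling, and Retnla completed the 10. None of the 9 class II genes had its highest level in cluster 5, against 7.76% of all genes. Of the 9, 7 stood 2-fold or more higher in cluster 10, against 3.61% of all genes, and the list median log2 was -5.72. Lyz2 was 4.07 times (3.66 to 4.53) and Apoe, which macrophages secrete, 33.6 times (25.2 to 45.5) higher in cluster 10 than in cluster 5.

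**Figure D5:**
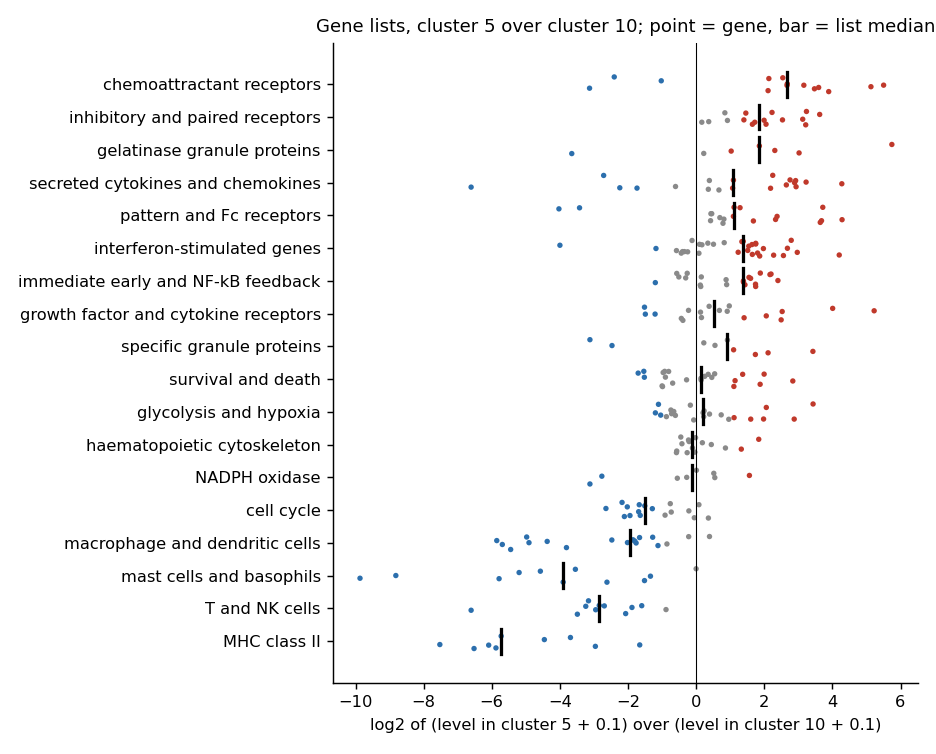
Log2 ratio of the level in cluster 5 over that in cluster 10 (0.1 added to both) for each measured gene of 18 lists; red points are at 1 or more, blue at -1 or less, and the black bar is the list median. Among the lists drawn, chemoattractant receptors have the highest median at 2.67 and class II genes the lowest at -5.72, with cytoskeleton genes at -0.11.

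The summed share of ribosomal protein genes was 5.47% in cluster 5, against 18.7% in cluster 10, and 75 of 85 were at least 2-fold higher in cluster 10. The ribosomal share was also low in clusters 4 and 8, at 5.78% and 3.94%. Mitochondrially encoded RNA took 6.19% in cluster 5. It took 0.923% in cluster 10, 0.945% in cluster 11 and 2.95% to 8.05% in the remaining columns. The 10 highest genes held 26.9% in cluster 5 and 14.3% in cluster 10, and 1099 and 1310 genes were at 1 or more.

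Genes of cluster 5 were also found at low levels in other columns. For the 99 leading genes at 5 or more, the level in cluster 10 was a median of 19.6% of that in cluster 5 (quartiles 8.70% and 30.4%). In the epithelial columns the median was highest in cluster 2, at 5.50% (lower quartile 3.61%), and lay between 0.412% and 1.79% in the other 9. Cluster 2 held 38 read cells under 2000 UMIs, 11.9% of its read cells, in the depth range of cluster 5. Of 27 occurrences of leading genes in cluster 2 that could be read to 1 or 2 cells, 8 (29.6%) lay in these shallow cells. Of all 3071 occurrences read there, 6.15% did. Genes found in more cells of a column did not enter. The same shares were 10.9% (5 of 46) against 1.49% in cluster 3 and 11.3% (6 of 53) against 2.18% in cluster 7. They were 10.5% against 5.79% in cluster 4, 5.41% against 2.72% in cluster 8 and 36.2% against 27.6% in cluster 6. Clusters 1, 0 and 9 went the other way, with 1.85% against 3.25%, 0% against 2.07% and 0% against 1.58%. Occurrences of different genes can come from the same cell, and only 19 of the 247 leading genes could be read in cluster 2. The share of shallow cells was higher in columns 4 and 6 than in cluster 2, at 17.3% and 42.5%, with leading genes at medians of 0.963% and 1.42%. How RNA of the leading genes came to lie in these columns was not tested.

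In several columns the leading genes of cluster 5 came together in single cells. A cell of cluster 11, the column of enteroendocrine genes with 19 cells, had 8457 UMIs and gave 97 UMIs of 52 leading genes, among them 10 of Srgn, 6 of C5ar1, 6 of Ccrl2, 3 of Csf3r and 3 of Retnlg. A cell of cluster 1 with 7253 UMIs gave 36 UMIs of 18 leading genes, among them 5 of Retnlg, 4 of Mmp9 and 3 of Cxcr2. A cell of cluster 9 with 16523 UMIs gave 28 UMIs of 21 leading genes. Only genes found in 1 or 2 cells of a column could be read in this way, so the count of such cells is a lower limit.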

How the data were processed

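The authors deposited 1 table of mean UMIs per 10000 in 12 clusters; its column sums of 10000 gave the unit. The submitters' processing notes name Cell Ranger 3.1.0, Seurat 2.3 and mm10. For cell filters, doublets, clustering settings and annotation the steps are not stated by any source used here. Values left in whole steps of 1 cell gave the cell number of each column and, where at least 2 genes pointed to the same total, the UMI totals of single cells; this reading was tested on simulated data, where the median total it gave for cluster 5 lay above the true one, so the median reported here may be high. Folds use a pseudocount of 0.1 and a minimum level of 1. Genes are named by 15 leading genes by fold, 15 by level, 10 by ratio to cluster 10 in each direction, the 6 markers, and members of the gene lists; others are said to be chosen after their values were seen. Members and lists were chosen with earlier results of these data known. With 1 group, nothing was tested. A few genes are not reported here.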

Additional observations from a re-analysis of the deposited data

How the results depend on the processing

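The 247 leading genes became 166 with a pseudocount of 1, 395 with no minimum level, 115 at 4-fold and 449 against the mean of the other columns. The 372 genes higher in cluster 5 than in cluster 10 became 233 with a pseudocount of 1, 1197 with no minimum level and 167 at 4-fold. The 615 genes higher in cluster 10 became 324, 2308 and 247 under the same settings. Without mitochondrial and ribosomal protein genes the 372 became 360, of which 333 were shared, and the 615 became 740, of which 540 were shared. Of 74 list medians, 42 moved by 0.5 or more on the log2 scale with a pseudocount of 1 and 34 with 0.01, and none changed sign. With a pseudocount of 1 the median of chemoattractant receptors over cluster 10 was 1.69 and that of class II genes -3.01. No paired analysis was possible because all cells are of 1 group and the columns name no library; for the same reason leaving out either library could not be run. The shallow cells limit what can be seen: a gene at 0 in cluster 5 could have had a level of up to 0.0845.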
